A study of Mus musculus with 2 samples.

Results

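The miR-183/96/182 cluster is a group of 3 mouse miRNA genes, Mir183, Mir96 and Mir182, which lie close together on chromosome 6. They were taken by gene name from the 1973 miRNA genes listed in the count tables, so 3 of 1973 genes are described. The rule that names them uses no measured value, but the choice was made with earlier results of these data known. All 3 were found in both libraries.

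A miRNA gene is transcribed into a hairpin, which is cut to a mature RNA that guides Argonaute proteins to messenger RNAs and lowers their output. The choice of target rests mainly on the seed, the run of bases from position 2 to 8 of the mature strand. The cluster is best known from the retina, the hair cells of the inner ear and other sensory cells, where its genes are made together, and it is also found in many epithelia. In mice and in people, changes in the seed of miR-96 cause progressive hearing loss. miR-96 and miR-182 are both known to repress the transcription factor FOXO1 in human cells.

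The samples were fetal liver of B6NCrl mice, a C57BL/6N stock, at embryonic day 15.5, when the organ holds hepatoblasts and young hepatocytes together with a large blood-forming population. There was 1 group of 2 libraries, with no treated, mutant or control group. Replicate 1 was made from a pool of 78 embryos and replicate 2 from a pool of 62, males and females mixed. The submitters number them as separate biological replicates, and RNA of under 30 nucleotides was selected. Each library averages over its embryos, and differences between the libraries come from pools and library making, not from single animals. In such bulk tissue, a smaller number of cells that make a miRNA cannot be told apart from less of it in each cell.

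Replicate 1 held 5529166 sense miRNA counts (reads on the gene's own strand) and replicate 2 held 3169882, a ratio of 1.74. Of all reads, 29.3% in replicate 1 and 31.1% in replicate 2 mapped to several places and entered no gene. At least 10 sense counts in both libraries, the minimum here for calling a gene detected, were reached by 352 genes. Mir122, the defining miRNA of hepatocytes, was the check of the label liver. It reached 182337 CPM (counts per 1000000 sense counts) in replicate 1, against 168741 CPM in replicate 2.

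The mature sequences are shown first because the seeds separate the members from each other and from nearly all other mouse miRNAs. All 3 members matched the RefSeq table (GRCm38.p6) by symbol. These are the 5′ arms, the arms by which the miRNAs are usually known, written 5′ to 3′ with the seed in capitals.
miR-183-5p: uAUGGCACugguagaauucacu
miR-96-5p: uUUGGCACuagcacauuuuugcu
miR-182-5p: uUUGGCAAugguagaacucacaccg

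The 3 seeds differ, yet all share the 5 bases UGGCA at positions 3 to 7, counted from the 5′ end. Going from miR-182-5p to miR-96-5p, the single seed difference is A8C. From miR-96-5p to miR-183-5p the single seed difference is U2A, so miR-182-5p and miR-183-5p differ in the seed at both positions, as U2A and A8C. Beyond the seed the likeness runs the other way. Compared base by base from the 5′ end, miR-182-5p and miR-183-5p had the same base at 18 of 22 positions (81.8%). miR-96-5p shared 12 of 23 positions (52.2%) with miR-182-5p and 13 of 22 (59.1%) with miR-183-5p. The pair with the closest full sequence is therefore the pair with the most different seeds.

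Among 1738 mature mouse sequences in the RefSeq table, 5 carried UGGCA at positions 3 to 7, and 3 of these were the members. The fourth is miR-1271-5p, which has the whole seed of miR-96-5p, and the fifth is miR-7022-5p.
miR-1271-5p: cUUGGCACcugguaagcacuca
miR-7022-5p: cCUGGCAAggaagggcucuguuu
The genes of both had 0 sense counts in both libraries: Gm24195, which the table pairs with miR-1271-5p, and Mir7022. A count of 0 allows up to 0.543 CPM in replicate 1 and 0.946 CPM in replicate 2, taking 3 counts as the limit. Of the genes whose 5′ arm has the seed of miR-96-5p, Mir96 was thus counted here and Gm24195 was not, above that limit. A gene's count does not separate its arms, so the seed itself was not measured. No other sequence of the table had the seed of miR-183-5p or of miR-182-5p.

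The hairpins are shown because a gene's count sums both arms and does not say which was read. In each, the mature 5′ and 3′ arms are in capitals.
Mir183: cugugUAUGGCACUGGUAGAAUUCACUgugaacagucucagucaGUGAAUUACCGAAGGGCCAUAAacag
Mir96: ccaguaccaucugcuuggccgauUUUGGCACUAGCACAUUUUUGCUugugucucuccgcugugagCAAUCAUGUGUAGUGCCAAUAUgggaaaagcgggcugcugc
Mir182: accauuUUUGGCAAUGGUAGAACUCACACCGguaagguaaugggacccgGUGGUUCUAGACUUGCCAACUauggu

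The annotated hairpins are 70, 106 and 75 bases long for Mir183, Mir96 and Mir182. The loop side between the arms is 17, 19 and 18 bases in the same order. In the lowest-energy fold predicted by RNAfold, 19 of 22 bases of the 5′ arm of Mir183 paired with the opposite side of the stem. For Mir96 this was 19 of 23 bases and for Mir182 it was 18 of 25. None of the 6 mature arms occurs in any of the 1004 other hairpins of the table, and the same holds for the first 18 bases of each arm. The nearest match of miR-183-5p is the Mir182 hairpin, with 4 mismatches. Within this table, then, no full-length member read has an equal match at another miRNA gene. Losses to reads that map to several places, which lower miRNAs with several identical copies, were not measured for these genes.

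On GRCm38 all 3 genes lie on the minus strand, so the order along the RNA is Mir183, Mir96, Mir182. Mir183 (ENSMUSG00000065619.2) is at 30169668 to 30169737, Mir96 (ENSMUSG00000065586.1) at 30169446 to 30169551 and Mir182 (ENSMUSG00000076361.1) at 30165918 to 30165992 of chromosome 6. The whole cluster spans 3820 bases. Mir96 begins 116 bases after the end of Mir183, whereas 3453 bases separate Mir96 from Mir182. In RefSeq the cluster lies inside Mirc35hg, a long noncoding RNA gene of the same strand, at 30158640 to 30174125. Mir183 lies 4388 bases downstream of the start of that gene.

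Mir182, the gene farthest along the transcript, had the highest level. It had 1868 sense counts in replicate 1 and 803 in replicate 2, which is 337.8 and 253.3 CPM. The mean was 295.6 ± 59.8 CPM (SD, n = 2). CPM was not divided by gene length, because a small RNA read covers a mature miRNA from end to end.

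Mir183, the first gene of the cluster, was next, with 1616 counts in replicate 1 and 740 in replicate 2. These are 292.3 CPM (exact 95% Poisson interval 278.2 to 306.9) and 233.4 CPM (216.9 to 250.9). The mean was 262.9 ± 41.6 CPM (SD, n = 2). In replicate 1 the interval of Mir182, 322.7 to 353.5 CPM, lay above that of Mir183. In replicate 2 it was 236.1 to 271.5 CPM and overlapped it. The order of Mir182 and Mir183 was the same in both libraries, at 1.16 times in replicate 1 and 1.09 times in replicate 2. Their means differ by less than the spread between libraries. That spread holds a difference between libraries that both genes share, so it does not measure how firm the order is.

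Mir96, the gene in the middle, was the lowest. It had 701 counts in replicate 1 and 334 in replicate 2, or 126.8 CPM (117.6 to 136.5) and 105.4 CPM (94.4 to 117.3). The mean of 116.1 ± 15.1 CPM (SD, n = 2) lay apart from both others, with no overlap in either library. Reads are not counted by molecular identifiers here, so all intervals cover counting error only. Adapter ligation favours some RNA ends over others, and its part in the differences of level between the 3 genes was not tested.

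**Figure D1:**
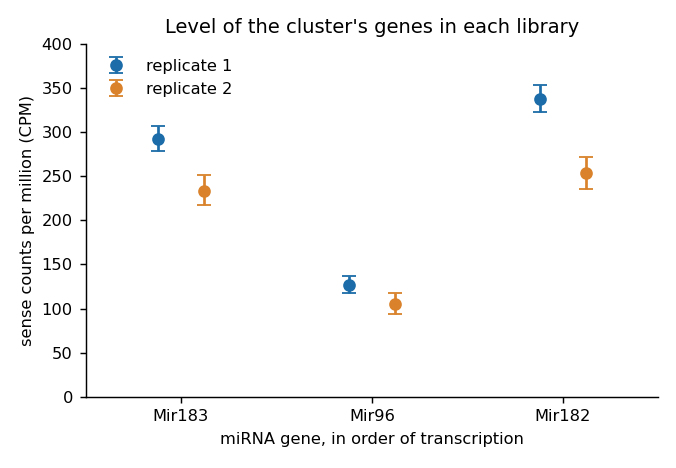
CPM (y axis, from 0) of Mir183, Mir96 and Mir182 (x axis) in replicate 1 and replicate 2, with exact 95% Poisson intervals as bars. Every gene is higher in replicate 1, and Mir96 at 126.8 and 105.4 CPM lies below both others.

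Position in the transcript did not order the levels. Mir183 and Mir96, 116 bases apart, differed by 2.31 times in replicate 1 and 2.22 times in replicate 2. Mir182, over 3 kb further on, was within 1.16 times of Mir183 in replicate 1 and 1.09 times in replicate 2. The distance between genes and the difference in level therefore did not go together among these 3 genes.

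**Figure D2:**
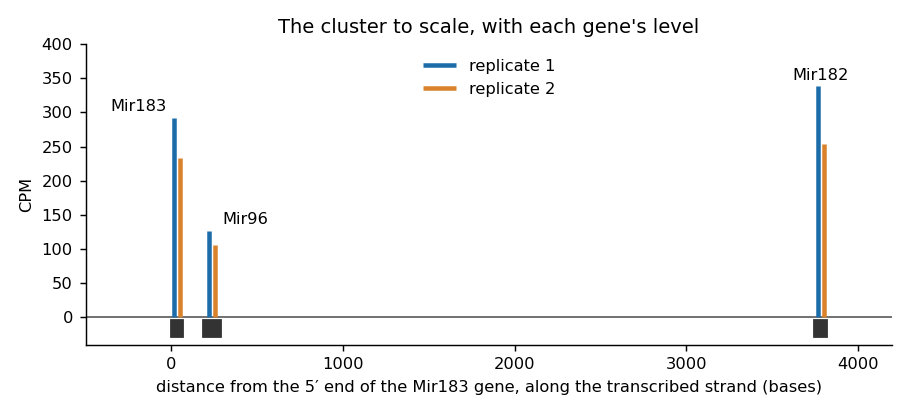
The cluster drawn to scale: boxes mark the genes by their distance in bases from the 5′ end of Mir183 along the transcribed strand (x axis), and vertical lines give the CPM of each gene in replicate 1 and replicate 2 (y axis), set slightly apart. Mir183 and Mir96 are neighbours with unequal levels, while the distant Mir182 has a level near that of Mir183.

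The makeup of the cluster was nearly the same in both pools. Mir182 made up 44.6% of the cluster's 4185 counts in replicate 1 (exact Clopper-Pearson 95% interval 43.1 to 46.2) and 42.8% of 1877 in replicate 2 (40.5 to 45.1). Mir183 made up 38.6% in replicate 1 (37.1 to 40.1) and 39.4% in replicate 2 (37.2 to 41.7). The share of Mir96 was 16.8% in replicate 1 (15.6 to 17.9) and 17.8% in replicate 2 (16.1 to 19.6). For each gene the intervals of the libraries overlap. Together the genes took 0.0757% of sense counts in replicate 1 (0.0734 to 0.0780) and 0.0592% in replicate 2 (0.0566 to 0.0620), where the intervals do not overlap.

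Within the miRNA profile of fetal liver the cluster was of middle rank. By mean CPM, Mir182 stood at rank 141, Mir183 at 142 and Mir96 at 182, of 352 detected genes and 1973 listed. The mean level of Mir122 was 594 times that of Mir182, 668 times that of Mir183 and 1512 times that of Mir96. The genes ranked next to them were Mir669o (301.8 ± 19.3 CPM) above Mir182, and Mir673 (255.9 ± 11.98 CPM) below Mir183. Mir30b (121.6 ± 7.79 CPM) stood above Mir96 and Mir330 (115.9 ± 4.16 CPM) below it (SD, n = 2 for each). None of these neighbours differed from its member by more than the sum of their SDs, but neighbours in rank are close by selection. Ranked in each library over all listed genes, Mir182 stood at 136 in replicate 1 and 143 in replicate 2. Mir183 stood at 140 and 149 and Mir96 at 179 and 188 in the same order, so the ranks are not sharp.

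**Figure D3:**
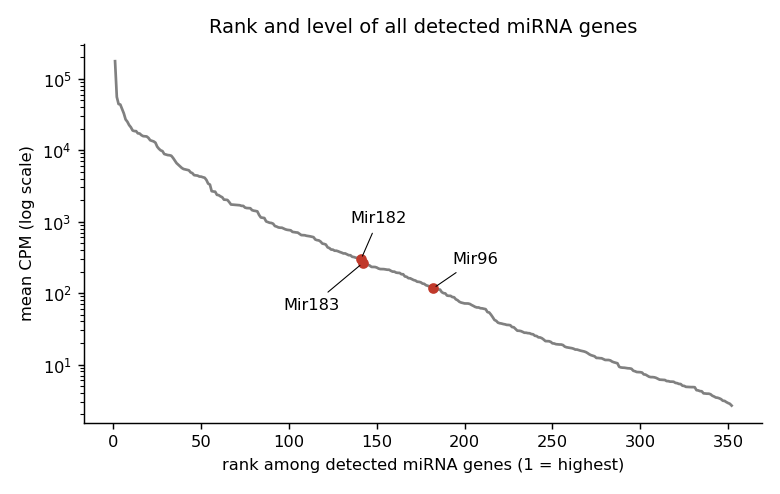
Mean CPM on a log scale (y axis) of the 352 detected genes against their rank (x axis, 1 is the highest), with the members marked. Mir182 and Mir183 lie side by side at ranks 141 and 142, and Mir96 at 182.

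Other miRNA clusters were less even. Of runs of at least 3 detected genes on 1 strand with gaps of at most 10 kb, 15 were found, this cluster included. Its highest gene was 2.55 times its lowest, a spread of 1.35 on the log2 scale. The median over the other 14 runs was 6.30, and their range was 1.07 to 12.9. Only the run of Mir302b, Mir302a and Mir302d, miRNAs of embryonic stem cells, was narrower, at 1.07. Mir302c lies between Mir302b and Mir302a but was not detected, with 14 counts in replicate 1 and 5 in replicate 2. At a mean of 2.05 CPM, against 27.4 CPM for Mir302a, it would widen that run. Genes below the minimum are left out of every run, so spreads of other clusters can be wider than given. Among runs of equal size, the epithelial cluster of Mir429, Mir200a and Mir200b had a spread of 3.95, and that of Mir25, Mir93 and Mir106b, in an intron of Mcm7, had 4.36. Longer runs have more chance of a wide spread, and over the other 6 runs of 3 genes the median was 5.12. These are descriptions, and some runs hold members whose reads map to several places and are lost.

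**Figure D4:**
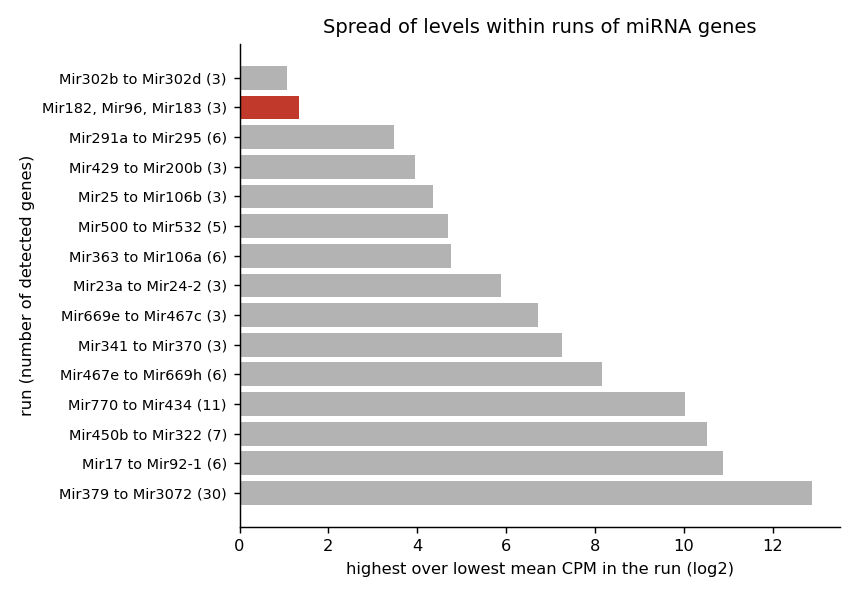
Log2 of the highest over the lowest mean CPM (x axis) within each of 15 runs of detected miRNA genes (y axis, first and last gene with the number of genes), narrowest at the top. The bar of Mir182, Mir96 and Mir183 is 1.35, next to the shortest, while the median of the others is 6.30.

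With 1 group, the comparison left is between the pools, and it asks whether separate pools of fetal livers carry the same amount of the cluster. All 3 genes were higher in replicate 1. Over all genes tested, 18.9% were higher in replicate 1, 19.7% were lower and 38.6% differed in either direction. The test, an exact binomial test on each gene, covers counting error and compares the libraries, not conditions. Among the 187 detected genes whose mean reached 100 CPM, the level class of the members, 29.9% were higher in replicate 1 and 31.0% lower.

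For Mir182 the log2 ratio, replicate 1 over replicate 2 on library sizes scaled by edgeR's TMM method, was 0.43 (95% interval 0.31 to 0.55). That is 1.35 times (exact binomial test, Benjamini-Hochberg adjusted p = 6.46e-12 over 456 genes). Mir183 had a log2 ratio of 0.34 (0.21 to 0.47), or 1.26 times (exact binomial test, adjusted p = 5.87e-07). Mir96 had 0.28 (0.09 to 0.47), or 1.22 times (exact binomial test, adjusted p = 0.0114). All 3 genes were thus higher in replicate 1. Their ratios stood in the order of the members' levels, but the intervals overlap, so that order is not sharp.

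Set beside the spread of the 187 genes with at least 100 CPM, the ratios were high. The median log2 ratio of these genes was -0.01 and its SD 0.203. Mir182 had the third highest log2 ratio among them, Mir183 the seventh and Mir96 stood at place 12. The ratios of all 3 thus lay more than 1 SD above the median, and that of Mir182 more than 2. No replicate exists within a pool, so a difference between pools cannot be separated from one between library preparations.

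The genes kept their proportions while the whole cluster was higher in replicate 1. The ratio of Mir182 to Mir183 counts was 1.16 in replicate 1 and 1.09 in replicate 2, an odds ratio of 1.07 (exact 95% interval 0.943 to 1.20). Mir182 against Mir96 gave an odds ratio of 1.11 (0.946 to 1.30), and Mir183 against Mir96 gave 1.04 (0.886 to 1.22). These 3 values do not depend on how library sizes are scaled. Each interval includes 1, so no unequal change between members was detectable at this depth, although a shift of up to 1.30 times is not outside the intervals. The range of log2 ratios within the cluster was 0.15. Over the other 14 runs its median was 0.49, and over the other 6 runs of 3 genes it was 0.18, close to that of the cluster. Only the run of Mir429 to Mir200b was narrower, at 0.05. That run was also the only other one in which every gene was higher in replicate 1.

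For the genes with the most similar levels in both libraries, likeness was the distance between log2(CPM + 1) values over the 2 libraries, so it mostly measures level. Nearest to Mir183 were Mir27a (distance 0.16), Mir32 (0.18) and Mir493 (0.21), with log2 ratios of 0.17, 0.10 and 0.14. Nearest to Mir96 were Mir708 (0.09), Mir330 (0.14) and Mir199b (0.25), with log2 ratios of 0.15, 0.09 and 0.03. Nearest to Mir182 was Mir183 itself (0.24), then Mir146 (0.26) and Mir340 (0.30). These last 2 had log2 ratios of 0.15 and 0.10. Of these genes outside the cluster, Mir27a and Mir146 were also higher in replicate 1 past the threshold, and differences in ratio from the members were not tested.

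Markers of epithelial cells were also higher in replicate 1. All 7 miRNAs of the epithelial list were higher by the same exact binomial test, over a background of 18.9%. Their median log2 ratio was 0.35, against 0.01 for all genes tested. In the class of 100 CPM and above, which holds the list except Mir141 and Mir205, that background was 29.9%. The list was chosen with earlier results of these data known, so 7 of 7 is not an independent result. It also rests on a single difference between 2 libraries, in which 5 of 5 genes of the hepatocyte list were higher too. The summed level of the epithelial list reached 4696 CPM in replicate 1, against 3669 CPM in replicate 2, and none of its genes was at 0. The highest was Mir429, of the miR-200 family that keeps epithelial cells in their state, which had 2615 CPM in replicate 1 against 2072 CPM in replicate 2 (log2 ratio 0.35). Mir200b, of the same family and locus, had 774.6 CPM in replicate 1 against 636.0 CPM in replicate 2 (0.30), and Mir200a, between them, 168.6 against 135.3 CPM (0.33). From the second miR-200 locus, Mir200c had 433.3 CPM in replicate 1 against 376.0 CPM in replicate 2 (0.22) and Mir141 had 60.9 against 47.3 CPM (0.38). All 5 family members thus had ratios near those of the cluster's genes. Such ratios were not confined to the list: Mir145a (0.37) and Mir181b-2 (0.36), above 100 CPM and on none of the lists, stood between Mir182 and Mir183. The skin and stratified epithelium miRNAs Mir203 and Mir205 had wider ratios, at 0.63 and 1.34. Mir205 had 65.7 CPM in replicate 1, against 26.2 CPM in replicate 2.

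The ratio of the cluster's summed counts to those of the epithelial list, which holds none of its genes, was 0.1612 in replicate 1 and 0.1614 in replicate 2. The odds ratio was 0.999 (exact 95% interval 0.941 to 1.06). Both sums were higher in replicate 1. By counting error alone, the interval leaves room for a difference between them of at most 1.06 times. Mir429 held 14457 of the list's 25965 counts in replicate 1, so this comparison rests mostly on that gene. The log2 ratios of the list's genes ran from 0.22 to 1.34. Several of these epithelial genes share a locus and are not independent, and their part in the higher level of the cluster in replicate 1 was not tested.

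**Figure D5:**
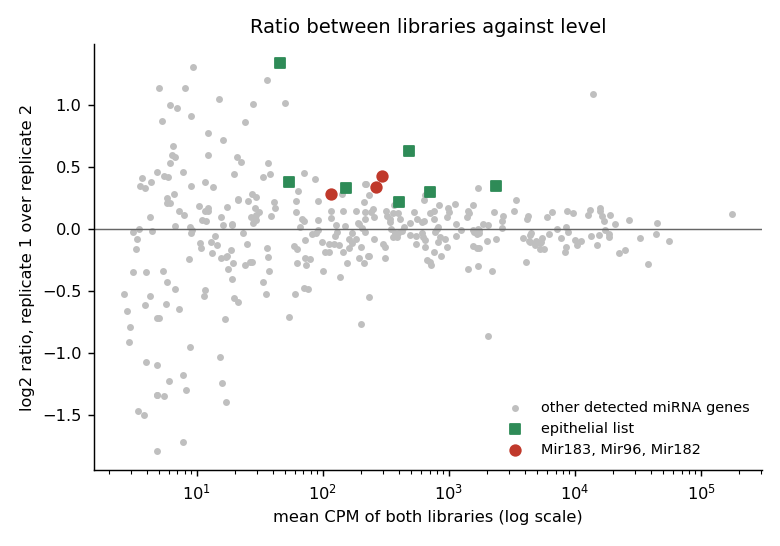
Log2 ratio, replicate 1 over replicate 2 (y axis), against mean CPM on a log scale (x axis) for the 352 detected genes, with the cluster's genes as red circles and the epithelial list as green squares. The cluster's genes lie at 0.28 to 0.43 and the epithelial genes at 0.22 to 1.34, all above 0.

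Markers of the sensory and nerve cells in which the cluster is best known were unevenly present among the counted reads. Of 11 miRNAs on the sensory and neural list, 10 are in the tables, 4 of these had 0 sense counts in both libraries and 4 were detected. The genes at 0 are Mir124a-1, Mir124a-2, Mir124a-3 and Mir9-2. The mature miRNAs of miR-9 are each found in 3 hairpins of the RefSeq table, so their reads could be lost as mapping to several places. The 3 Mir124a genes are copies of 1 miRNA, so their counts of 0 may likewise be lost reads. By symbol they matched no mature entry of that table, so their hairpins were not checked. Mir204 and Mir211, miRNAs of the retinal pigment epithelium have mature sequences that lie in 1 hairpin each of that table. Mir204 had 111 counts in replicate 1 and 31 in replicate 2 (20.1 and 9.78 CPM), and Mir211 had 3 and 0. Mir128-1, the highest of the list, had 121.4 CPM in replicate 1 against 127.5 CPM in replicate 2 (log2 ratio -0.06). Its mean of 124.4 CPM was above that of Mir96, at 116.1 CPM. Mir128-2 had 32.9 against 42.0 CPM (-0.34), and neither Mir128 gene passed the threshold. Each has a mature miRNA found in 2 hairpins, so reads of both could be lost too. Summed, the list came to 244.5 CPM in replicate 1, against 213.6 CPM in replicate 2. The cluster had 3.10 times the counts of the list in replicate 1 and 2.77 times in replicate 2, an odds ratio of 1.12 (exact 95% interval 1.001 to 1.24). Mir128-1 and Mir128-2 held 671 and 182 of the list's 1352 counts in replicate 1. In replicate 2 they held 404 and 133 of 677. The comparison thus rests mostly on these genes, and it was not repeated without them. On this list 2 of 5 genes tested were higher in replicate 1, Mir204 and Mir137, and 0 lower, against 38.6% of all genes in either direction. Mir137 had 66.6 CPM in replicate 1 against 33.1 CPM in replicate 2. The log2 ratios of Mir204 and Mir137, 1.05 and 1.02, were above those of the cluster's genes, whereas both Mir128 genes lay below them.

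Of 4 endocrine miRNAs tested, only Mir375, a miRNA of islets and gut endocrine cells, was higher in replicate 1 past the threshold, and 0 were lower, a share near the 18.9% and 38.6% of all genes. Mir375 had 1891 CPM in replicate 1, against 1515 CPM in replicate 2, a log2 ratio of 0.33 (exact binomial test, adjusted p = 7.02e-40). The ratio of the cluster to the summed endocrine list was 0.355 in replicate 1 and 0.339 in replicate 2, an odds ratio of 1.05 (exact 95% interval 0.985 to 1.12). The interval includes 1, so a difference between this summed list and the cluster was not shown. Mir375 held 10455 of the list's 11777 counts in replicate 1, so the comparison is mostly with that gene. Mir7-1, Mir7-2 and Mir7b had log2 ratios of 0.01, 0.07 and 0.45, none past the threshold. Mir7-1 and Mir7-2 each have a mature miRNA found in 2 hairpins of the RefSeq table, so their reads could be lost as mapping to several places.

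Lists of the main cell types of fetal liver differed from the cluster beyond counting error. The background to the counts that follow is again 18.9% of all genes tested higher in replicate 1 and 19.7% lower. On the hepatocyte list 5 of 5 genes were higher in replicate 1, with a median log2 ratio of 0.15. Mir122 was at 0.13, Mir194-2 at 0.10 and Mir192 at 0.15, below the members' ratios, while Mir194-1 was at 0.72. The value of Mir194-1 rests on 111 counts in replicate 1 and 39 in replicate 2. Mir194-1 and Mir194-2 each have a mature miRNA found in 2 hairpins of the RefSeq table, so reads of both could be lost. Mir802, with 140 counts in replicate 1 against 6 in replicate 2, was at 3.76. The odds ratio of the cluster against that list, nearly all Mir122, was 1.18 (exact 95% interval 1.12 to 1.25). On the leukocyte list, led by the granulocyte miRNA Mir223, 3 of 5 genes tested were higher in replicate 1 and 0 lower, with an odds ratio of 1.19 (1.13 to 1.26). Of the 3, Mir146 did not pass under total-count scaling (exact binomial test, adjusted p = 0.0545, against 0.0314). Sense counts of the leukocyte miRNA Mir142 were not analysed here, so it is in neither count nor ratio. RefSeq places it opposite to Mir142b, where 193651 opposite-strand counts lay in replicate 1 against 131496 in replicate 2. That is a log2 ratio of -0.23, the other way from the list, on more counts than the whole list had (116772 in replicate 1 and 62389 in replicate 2). On the erythroid list 1 of 3 genes was higher in replicate 1, Mir451a, a red cell miRNA, at a log2 ratio of 1.09, and Mir144 and Mir486 were lower, at -0.18 each. The odds ratio against the summed erythroid list was 0.875 (0.827 to 0.925). Without Mir451a, a choice made after seeing its ratio, it was 1.47 (1.38 to 1.55), so the direction of that comparison rests on this 1 gene.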

How the data were processed

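Each library has 1 deposited table of raw, whole-number counts of reads for each annotated miRNA gene. Counting used assembly mm10 and annotation release M4, per the text deposited beside the tables. No aligner, counter or trimming step is named in the sources used here. Sense-strand counts were used. Names and positions came from GENCODE release M21 on the same assembly, which matched 1894 of 1973 identifiers. Sequences came from RefSeq (GRCm38.p6) and folds from RNAfold 2.7.2.

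Genes with at least 10 counts summed were compared between libraries by a two-sided exact conditional binomial test in SciPy 1.17.1, on TMM-scaled sizes from edgeR 4.0.16, with Benjamini-Hochberg adjustment over 456 genes and a threshold of 0.05. DESeq2 1.42.0 gave alternative size factors. The test was checked only on simulated counts that vary by counting error, as the test itself assumes. That check cannot show how the test behaves when pools or library preparations vary further. Odds ratios are conditional estimates with exact intervals. Named genes were the members, seed relatives, nearest genes, rank neighbours and list genes. Clusters and genes in or beside other runs, and Mir145a and Mir181b-2, are named as examples, chosen after their values were seen. Members and lists were chosen with earlier results of these data known.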

Additional observations from a re-analysis of the deposited data

Results flagged for a closer look

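On the strand opposite to Mir183 lay 3 counts in replicate 1 and 7 in replicate 2, against 1616 and 740 sense counts. The 7 counts in replicate 2 are above the 3 that a count of 0 allows, in a strand that the comparisons do not use. Mir96 and Mir182 had 0 opposite-strand counts in both libraries. The origin of these reads was not tested.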

How the results depend on the processing

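All 3 genes stayed higher in replicate 1 and past the threshold under total-count scaling, DESeq2 size factors, totals without Mir122 and Mir451a, unstranded counts, no count minimum and a minimum of 50. The log2 ratio ranged from 0.32 to 0.37 for Mir183, 0.27 to 0.31 for Mir96 (adjusted p 0.00505 to 0.0172 by the exact binomial test) and 0.42 to 0.46 for Mir182. Genes higher and lower over all tested were 80 and 97 by total counts, and 100 and 79 without Mir122 and Mir451a, against 86 and 90. Per 1000000 of all reads, Mir183, Mir96 and Mir182 averaged 98.9, 43.7 and 111.2. The cluster's share was 0.0819% without Mir122 in the total. With no count minimum 1 leukocyte gene, Mir146b, was lower in replicate 1, against 0, and under total counts 2 were higher, against 3. The odds ratio of the cluster against the erythroid list was 1.47 without Mir451a, tried after seeing its ratio, against 0.875. The values per 1000000 of all reads and the share without Mir122 use the same sense counts over another total. The causes of the other shifts were not tested.

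With either library left out, levels ranged from 233.4 to 292.3 CPM for Mir183, 105.4 to 126.8 CPM for Mir96 and 253.3 to 337.8 CPM for Mir182. The cluster's share ranged from 0.0592 to 0.0757% and the spread of levels from 1.27 to 1.41 (log2). Ratios between libraries have no such check, since each needs both. No paired analysis was possible because there is 1 group. With 2 libraries, an SD rests on a single difference.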
